A study of Mus musculus with 12 samples.

Results

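The genes described here are 41 genes of DNA replication and mitosis, listed by name, in mouse bone marrow cells that carried a Hoxa9 retroviral vector. They were placed in 3 roles: 20 replication genes, 7 regulators of the entry into S phase (G1/S regulators) and 14 mitosis genes. A gene was kept where the exon array had at least 1 probe set naming it and no other gene, which held for 40 of the 41 among 20711 genes measured in the same way. Ccnb1, a mitotic cyclin gene, had no probe set of its own and was left out, so that 13 mitosis genes remained. Rrm2 rested on 1 probe set, and the other 39 genes on 5 to 55. Orc1l and Cdc45l are the array's older symbols for Orc1 and Cdc45.

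The cells were bone marrow progenitors of female C57B/6 mice, 12 weeks old and treated with 5-fluorouracil, a drug that removes cycling marrow cells. They were transduced with MSCV retroviral constructs and grown as primary cultures in DMEM with fetal calf serum and the cytokines IL3, SCF and IL6. Hoxa9, a transcription factor gene of early blood cells, was expressed in all 3 conditions from a vector that also carried GFP. What differed was the second vector. In HOXA9+MIY it was empty, in HOXA9+MEIS1 it encoded Meis1, a cofactor of Hoxa9, and in HOXA9+MDHD it encoded a Meis1 that lacks its DNA-binding homeodomain. There were 4 arrays for each, 2 from week 3 of culture and 2 from week 4, so that 6 arrays stood at each week. There was no condition without Hoxa9, both proteins came from retroviral vectors and not from their own genes, and the transplants into irradiated mice are not analysed here. Per the labels the 4 experiments in each condition were independent; they do not say whether week 3 and week 4 arrays share cultures, so the p-values measure the spread between these arrays.

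A cell copies its DNA once per division. Origins are first marked by the origin recognition complex, on which Cdc6 and Cdt1 load the ring of Mcm helicase subunits; Cdc45 and the GINS complex then turn the ring into a moving helicase, and DNA polymerases follow it. Cyclin E with Cdk2 and the E2F factors start this programme late in G1, whereas cyclins A and B, the Polo and Aurora kinases and the spindle checkpoint act from S phase to the end of mitosis. In textbook accounts the promoters of the first set are read by E2F factors and many promoters of the second set carry a cell cycle homology region (CHR), bound by the DREAM and Myb-MuvB complexes. In myeloid cultures these genes mark dividing progenitors, and terminal neutrophil differentiation ends division. In bulk RNA such as this, fewer dividing cells and less RNA per dividing cell cannot be told apart.

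The promoters of both sets are shown first because the main contrast below runs between them. RefSeq windows of the GRCm38.p6 build, from 250 bases before to 50 after a gene's start, were held for 32 of the 40 genes, and not for Mcm4, Gins1, Gins2, Pole, Ccne2, Ccna2, Aurkb and Foxm1. Both strands were searched for the E2F words TTTCCCGC, TTTCGCGC, TTTGCCGC and TTTGGCGC, which may overlap one another. An E2F word stood in the window of 8 of 16 replication genes (Mcm3, Mcm5, Mcm6, Mcm7, Cdc6, Cdt1, Orc1l and Pola1), of 4 of 6 G1/S regulators (Cdk2, Cdc25a, E2f2 and E2f3) and of 0 of 10 mitosis genes. Among all 32851 windows the share was 2.26%, and among the 27025 genes with a window it was 2.6%. The stretches up to the base before the start are given for 4 replication genes, 5′ to 3′ on the strand of the gene, with the E2F words in capitals.

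Orc1l (chr4:108579364-108579453, plus strand): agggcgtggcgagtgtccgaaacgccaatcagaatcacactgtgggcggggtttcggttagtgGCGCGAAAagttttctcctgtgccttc
Cdc6 (chr11:98907998-98908150, plus strand): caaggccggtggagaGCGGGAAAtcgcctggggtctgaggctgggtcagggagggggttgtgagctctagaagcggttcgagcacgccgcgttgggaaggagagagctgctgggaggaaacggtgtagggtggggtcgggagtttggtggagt
Mcm6 (chr1:128359706-128359830, minus strand): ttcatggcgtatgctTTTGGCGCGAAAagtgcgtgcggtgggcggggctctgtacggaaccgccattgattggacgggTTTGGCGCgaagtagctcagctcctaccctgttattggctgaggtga
Pola1 (chrX:93632156-93632308, minus strand): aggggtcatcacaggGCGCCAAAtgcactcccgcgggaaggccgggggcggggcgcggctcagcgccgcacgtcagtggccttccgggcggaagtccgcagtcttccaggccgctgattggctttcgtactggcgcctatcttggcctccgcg

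The CHR was searched as TTTGAA and TTCGAA on both strands. It stood in the window of 9 of 10 mitosis genes (Ccnb2, Cdc20, Bub1, Bub1b, Plk1, Aurka, Top2a, Mki67 and Kif11), against 3 of 16 replication genes (Mcm2, Mcm7 and Cdc45l) and 2 of 6 regulators (E2f2 and E2f3). Birc5 was the mitosis gene without one. The share was 19.2% of all windows and 21.7% of genes with a window. The word CCAAT, on either strand, stood beside it in all 9 mitosis genes, but also in 13 of 16 replication genes, with a share of 37.4% of all windows. The stretches of 4 mitosis genes follow, with the CHR words in capitals.

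Cdc20 (chr4:118437344-118437433, minus strand): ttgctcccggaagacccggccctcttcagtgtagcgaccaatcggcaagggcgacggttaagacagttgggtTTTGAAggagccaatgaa
Top2a (chr11:99024190-99024383, minus strand): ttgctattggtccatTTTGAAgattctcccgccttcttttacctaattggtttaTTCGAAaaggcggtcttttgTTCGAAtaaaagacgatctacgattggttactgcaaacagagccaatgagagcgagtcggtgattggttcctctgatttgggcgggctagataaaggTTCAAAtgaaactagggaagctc
Kif11 (chr19:37376292-37376381, plus strand): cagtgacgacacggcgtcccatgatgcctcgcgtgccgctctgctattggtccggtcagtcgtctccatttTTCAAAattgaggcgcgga
Mki67 (chr7:135716380-135716510, minus strand): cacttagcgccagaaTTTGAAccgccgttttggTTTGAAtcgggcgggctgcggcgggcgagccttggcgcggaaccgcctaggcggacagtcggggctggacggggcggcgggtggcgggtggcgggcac

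In these stretches Mcm6 holds 3 E2F words, 2 of them overlapping, and Top2a holds 4 CHR words. A match of letters describes the sequence and is not evidence of binding.

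Before the members, the arrays were checked. Relative to HOXA9+MIY, the Meis1 signal was raised 7.36-fold in HOXA9+MEIS1 and 6.05-fold in HOXA9+MDHD, and Hoxa9 stood between 13.29 and 13.37 in the mean of each condition (log2 gene values, n = 4), as the labels have it. Array medians over all probe sets lay between 6.26 and 6.30. The 2 arrays of the same condition and week agreed least in HOXA9+MDHD (Pearson r over genes of 0.983 at week 3 and 0.981 at week 4). In the other conditions r was 0.990 to 0.993. The spread of the gene values was narrower on every week 4 array (SD 1.387 to 1.450) than on every week 3 array (SD 1.468 to 1.503). Of 10 progenitor markers, 7 were called higher with HOXA9+MEIS1 against HOXA9+MIY, where 5.29% of all genes were. The vector gene Meis1 is 1 of the 10. Cd93, Myb and Cd34 had the highest mean levels, and Myb was not called (log2 0.12). In that comparison 11 of 12 late neutrophil markers and 10 of 12 monocyte markers were called lower, against 5.56% of all genes. The monocyte marker Emr1 was called higher (log2 1.07). The members' own values are given on the log2 scale of the array, on which a gene is compared between arrays and not with another gene.

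The first question was whether the division genes differed between the 2 lengths of culture. At week 4 most of them were lower than at week 3, and the median fall of the replication genes was larger than that of the mitosis genes. Of the 40 genes, 37 were called lower at week 4 and 0 higher, where called means an adjusted p under 0.05 over all genes (limma, condition and week as terms). Of all 20711 genes 39.8% were called in this comparison, 28.1% lower and 11.7% higher. At an unadjusted p under 0.05 the members' count was also 37, against 46.5% of all genes (31.1% lower). By role, 19 of 20 replication genes, 5 of 7 G1/S regulators and 13 of 13 mitosis genes were called lower. The median change was -0.64 on the log2 scale for replication genes (1.56-fold), -0.48 for regulators and -0.33 for mitosis genes (1.26-fold), against -0.02 over all genes. Those not called were Rrm2, Cdk2 and E2f2.

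**Figure D1:**
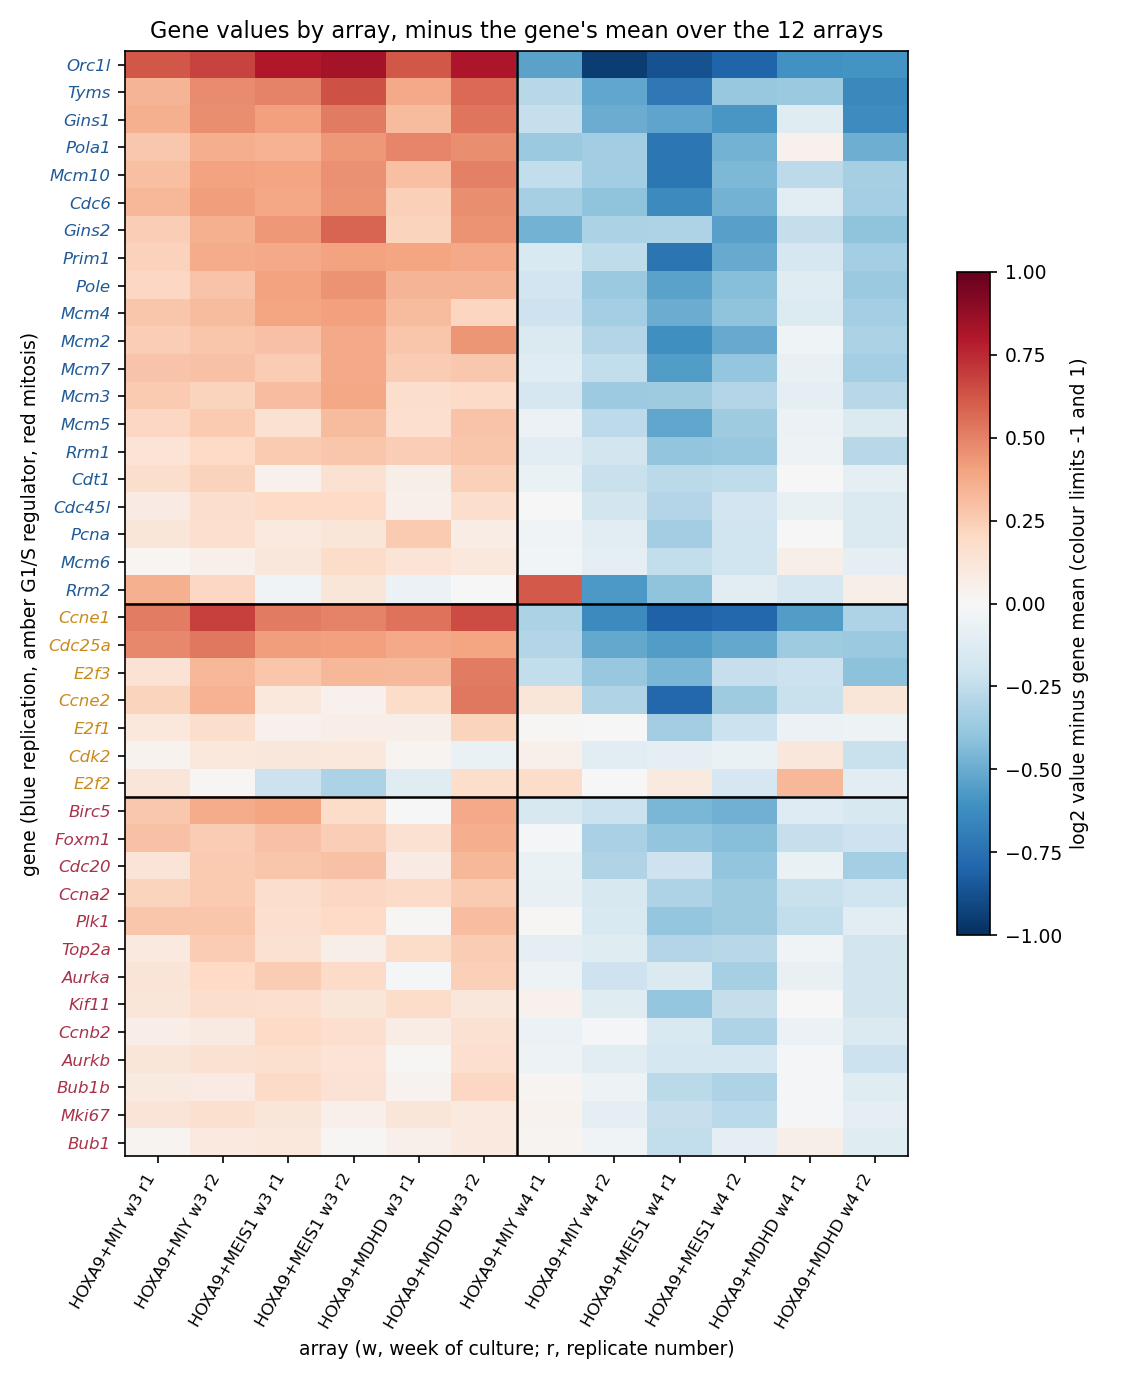
Log2 value of each of the 40 genes (rows, grouped by role) on each of the 12 arrays (columns, week 3 left of the line and week 4 right of it), minus the gene's mean over the 12 arrays. Red cells, above the mean, lie mostly at week 3 and blue cells at week 4, with the strongest colours in Orc1l and Ccne1, whereas Rrm2, Cdk2 and E2f2 show no split between the weeks.

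The origin licensing genes changed by unequal amounts. Orc1l, the largest subunit of the origin recognition complex, stood at 8.77, 8.89 and 8.98 (lowest, median and highest of 6 arrays) at week 3 and at 7.20, 7.45 and 7.62 at week 4. The gap between the weeks was wider than the range within either, and the fall was 2.74-fold (log2 -1.45 ± 0.077, SE, adjusted p = 2.80e-07), the largest of the 40. All 18 of its probe sets were lower at week 4. Cdc6, which loads the Mcm ring together with Cdt1, went from 9.36, 9.53 and 9.59 to 8.49, 8.76 and 9.02 (log2 -0.76 ± 0.074). Its partner Cdt1 moved less, from 10.01, 10.13 and 10.20 to 9.69, 9.80 and 9.96 (log2 -0.30 ± 0.052, adjusted p = 4.56e-04). Both genes were lower on every week 4 array than on any week 3 array.

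The 6 genes of the Mcm ring fell together but by unequal amounts. Mcm4 went from 10.86, 10.96 and 11.06 at week 3 to 10.15, 10.31 and 10.51 at week 4 (log2 -0.64 ± 0.062, 1.56-fold, adjusted p = 5.74e-06). Mcm2 changed alike (log2 -0.64 ± 0.075), followed by Mcm7 (-0.57), Mcm3 (-0.51) and Mcm5 (-0.47). Mcm6 was the exception in size, at log2 -0.20 ± 0.049 (adjusted p = 0.00510), with 11.23 to 11.39 at week 3 and 10.96 to 11.26 at week 4, so that its weeks overlapped. Mcm6 lost its call with quantile normalization (-0.07, adjusted p = 0.197). Mcm10, a factor in the firing of the helicase, fell by 0.79 ± 0.073 on the log2 scale.

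The helicase partners showed the same unevenness. Gins1 fell by 0.86 ± 0.089 and Gins2 by 0.76 ± 0.071 on the log2 scale (1.82-fold and 1.70-fold), whereas Cdc45l, which joins the same moving helicase, fell by 0.29 ± 0.054. Gins1 stood at 9.52, 9.64 and 9.74 at week 3 and at 8.58, 8.69 and 9.09 at week 4. These ranges lie apart, as do those of Gins2.

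Polymerase genes and the supply of nucleotides followed. Pola1, the catalytic subunit of the polymerase that starts new strands, went from 9.52, 9.65 and 9.73 to 8.52, 8.82 and 9.29 (log2 -0.79 ± 0.088), and its primase partner Prim1 from 9.67, 9.82 and 9.84 to 8.71, 9.14 and 9.29 (-0.72 ± 0.080). Pole, the catalytic subunit of the polymerase of the leading strand, fell by 0.67 ± 0.070 over 55 probe sets, all of them lower. Pcna, the clamp that holds polymerases on DNA, fell by only 0.28 ± 0.045 (adjusted p = 2.77e-04). Tyms, which makes the thymidine nucleotide, went from 10.20, 10.34 and 10.50 to 9.15, 9.41 and 9.58, a 1.95-fold fall (log2 -0.97 ± 0.083, adjusted p = 2.77e-06). Of the ribonucleotide reductase subunits, Rrm1 fell by 0.46 ± 0.055.

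Rrm2, the other subunit, was not called (log2 -0.19 ± 0.159, 95% interval -0.54 to 0.15). On its single probe set it stood at 6.89, 7.01 and 7.30 at week 3 and at 6.38, 6.81 and 7.56 at week 4. The week 4 range enclosed that of week 3, and the interval does not exclude a fall like that of Rrm1.

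Among the G1/S regulators the fall was steep in some and absent from the calls in others. Ccne1, the cyclin E1 gene, stood at 9.38, 9.41 and 9.57 at week 3 and at 8.07, 8.28 and 8.57 at week 4 (log2 -1.14 ± 0.073, 2.20-fold, adjusted p = 5.87e-07). Cdc25a, the phosphatase that activates Cdk2, went from 10.27, 10.30 and 10.42 to 9.33, 9.45 and 9.60 (log2 -0.87 ± 0.049). The weeks lay far apart in both genes. E2f3 fell by 0.64 ± 0.065, Ccne2, the cyclin E2 gene, by 0.48 ± 0.104 and E2f1 by 0.22 ± 0.049. Ccne2 overlapped between the weeks, with its lowest array, 8.67, in HOXA9+MEIS1.

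Cdk2, the kinase that cyclin E activates, was not called (log2 -0.11 ± 0.058, 95% interval -0.23 to 0.02), with 10.29 to 10.47 at week 3 and 10.13 to 10.47 at week 4. E2f2 was the 1 gene of the 40 above 0 (0.11 ± 0.086, adjusted p = 0.333), and 3 of its 13 probe sets were lower at week 4. Its weeks overlapped almost wholly, at 7.54 to 8.03 and 7.68 to 8.18.

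The mitosis genes were all called lower, by smaller amounts. Birc5, the survivin subunit of the chromosomal passenger complex, went from 9.12, 9.44 and 9.50 at week 3 to 8.64, 8.93 and 8.98 at week 4 (log2 -0.53 ± 0.080). Foxm1, a transcription factor of G2 and mitosis genes, went from 10.02, 10.14 and 10.24 to 9.44, 9.59 and 9.85 (-0.53 ± 0.063). These were the widest falls among the 13 mitosis genes, and both were smaller than the median fall of the replication genes. Ccna2, the cyclin A2 gene, which acts in S phase as well as in mitosis, went from 11.89, 11.93 and 11.98 to 11.36, 11.50 and 11.64 (-0.44 ± 0.035, adjusted p = 1.74e-06). Cdc20, an activator of the anaphase-promoting complex, fell by 0.46 ± 0.072, and the kinase Plk1 by 0.41 ± 0.058. The Aurora kinases Aurka and Aurkb fell by 0.33 and 0.25, Top2a, which untangles sister chromatids, by 0.33, and the spindle motor Kif11 by 0.30.

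The rest of the mitosis genes changed least. Ccnb2, a cyclin B gene, fell by 0.25 ± 0.047, the checkpoint gene Bub1b by 0.24 ± 0.061 and the proliferation marker Mki67 by 0.23 ± 0.037. Mki67 still lay apart between the weeks, at 12.13 to 12.25 and 11.81 to 12.12. Bub1, a spindle checkpoint kinase, was at the edge of the threshold (log2 -0.13 ± 0.048, adjusted p = 0.0471) and overlapped between the weeks. Its call was lost without any 1 of 9 of the 12 arrays, with the replicate number as a block and under other scalings, and its sign turned with quantile normalization (0.01) and cyclic loess (0.07).

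**Figure D2:**
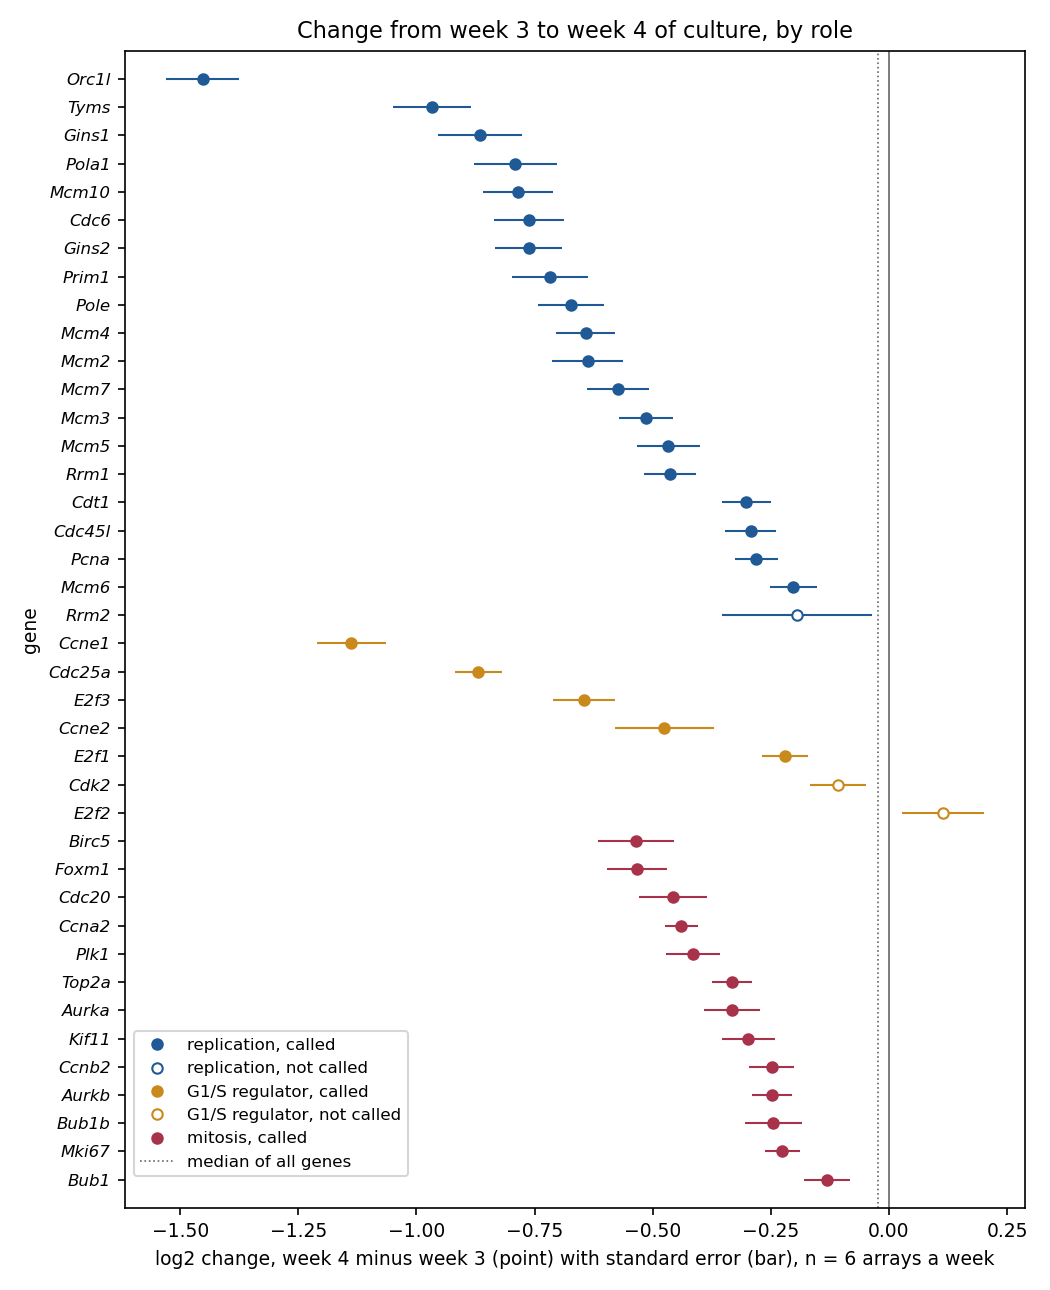
Log2 change from week 3 to week 4 of each of the 40 genes (points) with limma's standard error (bars), n = 6 arrays a week, ordered by size within each role, filled where called. Replication genes reach from -1.45 to -0.19, mitosis genes from -0.53 to -0.13, and E2f2 alone lies above 0.

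Counted without a model, all 6 week 4 arrays lay below all 6 week 3 arrays in 18 of 20 replication genes (not Mcm6 and Rrm2), 4 of 7 regulators and 12 of 13 mitosis genes (not Bub1), which held for 17.9% of all genes, while 4.13% lay wholly higher. With arrays of the same condition and replicate number set side by side (6 pairs, which share only the number), 19 of 20 replication, 5 of 7 regulator and 12 of 13 mitosis genes were lower at week 4 in every pair, against 26.3% of all genes. Single probe sets showed the same: 397 of 402 (98.8%) of the replication genes and 253 of 262 (96.6%) of the mitosis genes were lower at week 4, compared with 63.5% of the 233798 probe sets of all genes. For the regulators the share was 86.8%, and E2f2 held 10 and Cdk2 3 of the 15 that were not lower.

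To set replication beside mitosis array by array, each gene's mean over the 12 arrays was subtracted and the median taken within a role. Replication genes stood between 0.26 and 0.39 on the week 3 arrays and between -0.52 and -0.10 on the week 4 arrays. Mitosis genes stood between 0.07 and 0.24 at week 3 and between -0.31 and -0.05 at week 4. The difference, replication minus mitosis, was above 0 on all 6 week 3 arrays (0.08 to 0.22) and below 0 on all 6 week 4 arrays (-0.25 to -0.04), so that the weeks did not overlap. Centring over both weeks places them on either side of 0, so the result is the gap between the weeks and not the sign. In the fitted changes the role medians differed by 0.31 on the log2 scale, and replication minus mitosis ran from -0.33 to -0.30 under the other normalizations, filters and gene summaries tried. No test was made of this difference, since the genes of a role are not replicates.

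**Figure D3:**
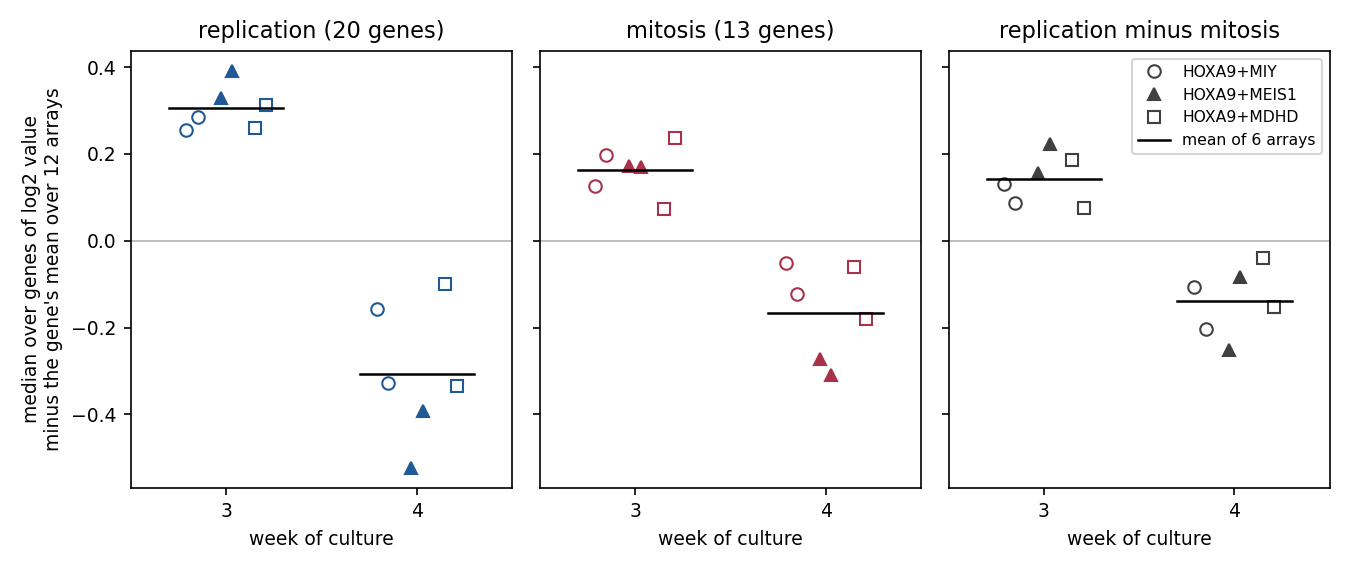
Median over the 20 replication genes (left), over the 13 mitosis genes (middle) and their difference (right) on each of the 12 arrays, as log2 value minus the gene's mean over all arrays, against week of culture; symbols mark the condition and lines the mean of 6 arrays. The weeks lie apart in each panel, and the 2 HOXA9+MEIS1 arrays are the lowest of week 4 for both roles.

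The level of a gene on the array moved with the week change and is given here beside it. Among genes with a mean log2 value of 9 to 12, where 32 of the 40 members lie, 54.7% were called lower at week 4, and the median change of all genes was -0.20 in the range from 9 to 10. Of the 40 members, 37 changed more negatively than the median of all genes in their own range, by a role median of -0.45 for replication genes, -0.28 for regulators and -0.18 for mitosis genes. With cyclic loess, which evens out such a dependence on level and was chosen after the narrower spread at week 4 had been seen, 16 of 20 replication genes (median -0.44), 4 of 7 regulators (-0.27) and 10 of 13 mitosis genes (-0.15) were called lower. Those that lost their call were Mcm6, Cdt1, Cdc45l, E2f1, Kif11, Bub1b and Bub1. Over all genes the split of calls depended on the scaling: 29.5% of them were higher in the main analysis, 46.2% with quantile normalization, 41.9% with median centring and 51.2% with cyclic loess (4258 higher and 4058 lower).

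**Figure D4:**
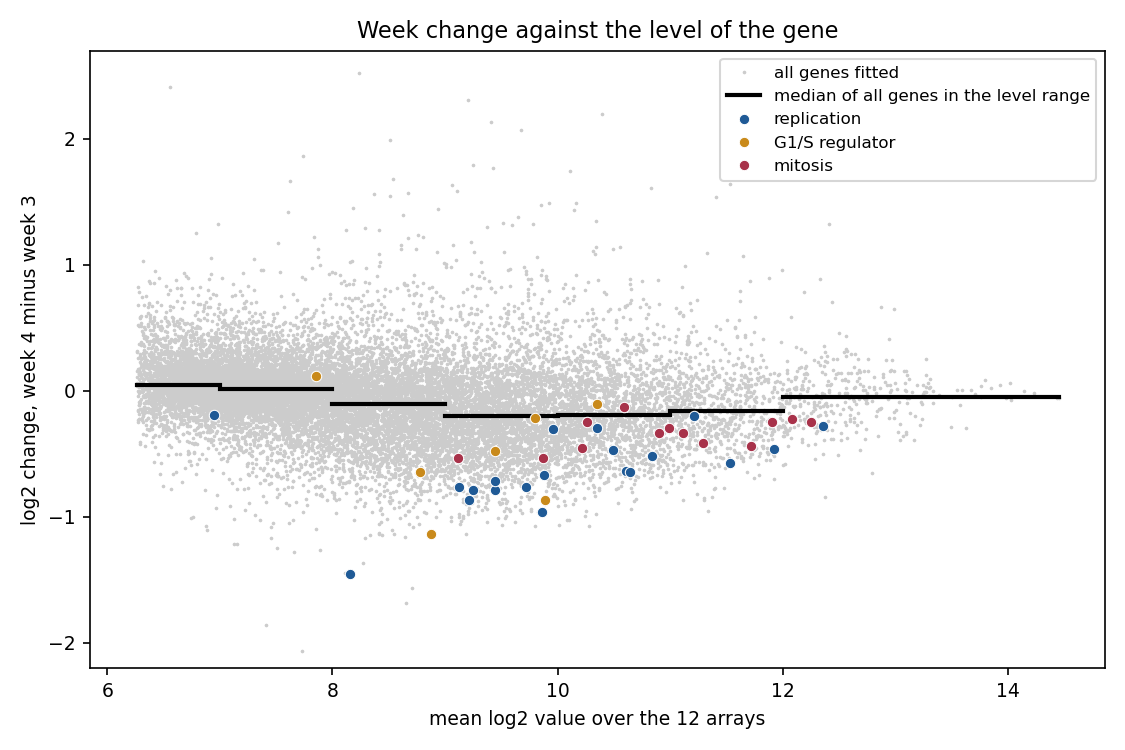
Log2 change from week 3 to week 4 against the mean log2 value over the 12 arrays, for all 20711 genes (grey) and the 40 members (coloured by role), with the median of all genes in each range of level (black). The median of all genes dips to -0.20 between 9 and 10, and 37 of the 40 members lie below the black line of their range.

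Promoter letters did not separate the replication genes among themselves. The 8 with an E2F word had a median week change of -0.54 (-1.45 to -0.20), and the 8 without one of -0.55 (-0.97 to -0.19). Over the 552 other genes with an E2F word in a window, 276 were called lower at week 4, against 29.4% of all 15922 genes with a window; among those with a mean log2 of 9 to 12 the shares were 70.2% of 235 and 56.3% of 4557. Of the 1366 other genes with both a CHR word and CCAAT, 29.4% were called lower, and of those with a mean log2 of 9 to 12 it was 62.1% of 393.

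Other genes of the same pathways, from lists written with earlier results of these data known, were mostly lower too. Of all genes 28.1% were called lower and 11.7% higher, and 54.7% of those with a mean log2 of 9 to 12 were called lower. Of 41 further replication genes 39 were called lower and 1 higher, with a median of -0.51. The largest were Fen1, which trims Okazaki fragments (log2 -1.07 ± 0.074), Rpa3, a subunit of the protein that coats single-stranded DNA (-0.95), Chaf1b, of the chromatin assembly factor (-0.94), and Tipin, of the fork protection complex (-0.86). Of 49 further mitosis genes 45 were called lower and 1 higher (median -0.38), led by the centrosome kinase Nek2 (-0.89), the cytokinesis motor Kif20a (-0.73) and the kinetochore genes Spc24 (-0.70) and Cenph (-0.68). Of 15 further regulators 13 were called lower and 1 higher (median -0.50), led by Lin9 (-0.83) and Mybl2 (-0.78), both parts of the Myb-MuvB complex, then E2f6 (-0.67) and E2f4 (-0.60). The medians of replication and mitosis lay closer together here than among the members.

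The 3 exceptions that rose are named after their values were seen. They were Orc5l, an origin recognition subunit (log2 0.46 ± 0.075), Anln, the cytokinesis scaffold anillin (0.37 ± 0.045), and Rb1, the retinoblastoma protein that holds E2F factors in check (0.57 ± 0.061, adjusted p = 1.08e-05).

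Markers of other cells were counted in the same comparison, where 11.7% of all genes were called higher and 28.1% lower. At week 4, 6 of 12 late neutrophil markers were called higher and 0 lower, and the log2 of their summed level ran from 12.78 to 14.76 on the week 3 arrays and from 13.11 to 15.23 on the week 4 arrays. Of 7 mast cell and basophil markers 3 were lower and 0 higher (12.30 to 13.30, then 11.67 to 12.65). Monocyte markers gave 2 higher and 1 lower of 12, progenitor markers 1 higher and 1 lower of 10, and megakaryocyte markers 2 higher of 6. None of the erythroid, B, and T and NK lists had a called gene, and the stroma list had 1 higher of 7. The conditions are pooled in these ranges, which overlap between the weeks in each list, and their part in the week change was not tested.

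The week change was then taken within each condition, in a model with a mean for each condition and week (2 arrays each). In HOXA9+MIY 25 of the 40 genes were called lower (17% of all genes), with a median of -0.50 for replication and -0.28 for mitosis genes. In HOXA9+MDHD it was 24 of 40 (13.8% of all genes), with medians of -0.52 and -0.24. In HOXA9+MEIS1 it was 36 of 40 (22.2% of all genes), with medians of -0.87 and -0.46. Orc1l was called lower in each, with log2 changes of -1.39, -1.32 and -1.65 in the same order. A fit on the 4 HOXA9+MDHD arrays alone called 1 of the 40, Orc1l, where it called 58 of all 20711 genes. Fits on the 4 arrays of HOXA9+MIY and of HOXA9+MEIS1 called 5609 and 6599 of all genes. In the model of all 12 arrays, 3 of 12 late neutrophil markers were called higher at week 4 in HOXA9+MIY (median 0.62 on the log2 scale). It was 10 of 12 in HOXA9+MDHD (median 1.22) and 0 of 12 in HOXA9+MEIS1 (median -0.07). Of all genes 3.68%, 5.43% and 5.95% were called higher in that order. Of the 7 mast cell and basophil markers 3, 4 and 1 were called lower in that order. The part of these markers in the week change within a condition was not tested. Whether the conditions differ in their week change is the same question as whether the vectors' effects differ between the weeks, which is tested below.

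The next question was whether Meis1 changed the division genes beside Hoxa9. Averaged over the weeks, no difference passed the test, although most values lay on the lower side with full-length Meis1. In HOXA9+MEIS1 against HOXA9+MIY 0 of 40 genes were called, where 10.8% of all genes were (5.29% higher and 5.56% lower). The value was below 0 in 35 of 40, against 51.8% of all genes, with a median of -0.10 on the log2 scale. At an unadjusted p under 0.05 stood 8 of the 40, all on the lower side, against 22.1% of all genes (10.7% on the lower side).

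A count of 8 of 40 is close to the 22.1% of all genes at that threshold, of which 10.7% lay on the lower side. The 8 are therefore named as description only. They were regulators and mitosis genes. For Ccne2 the difference was -0.34 ± 0.128 on the log2 scale (adjusted p = 0.122), for E2f2 -0.23 ± 0.105, for Ccne1 -0.21 ± 0.089 and for E2f1 -0.19 ± 0.060 (adjusted p = 0.0730). For Plk1 it was -0.20 ± 0.071, for Mki67 -0.14 ± 0.045, for Ccna2 -0.14 ± 0.043 (adjusted p = 0.0643) and for Top2a -0.13 ± 0.051. None of the 20 replication genes was among them, and the median of the replication genes was -0.07. This split by role was not tested. E2f1 and Mki67 were called with quantile normalization and cyclic loess, and Plk1 was called with only the 8 arrays compared. For Ccna2 the HOXA9+MEIS1 arrays stood at 11.89 and 11.92 at week 3 and at 11.41 and 11.36 at week 4, against 11.94 and 11.98, then 11.64 and 11.55, in HOXA9+MIY. At either week both HOXA9+MEIS1 arrays of this gene lay below both HOXA9+MIY arrays.

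Of the further genes, 1 of 41 replication genes, 3 of 49 mitosis genes and 2 of 15 regulators were called, against the 10.8% of all genes. Tk1, the thymidine kinase of S phase (log2 -0.43 ± 0.122), and the mitosis genes Racgap1 (-0.31), Ccnf (-0.29) and Cdkn3 (-0.28) were called lower. Tfdp2, a partner of E2F factors (0.31), and E2f5, an E2F repressor (0.29), were called higher. In the same comparison the summed late neutrophil markers stood at 14.56 to 15.23 in HOXA9+MIY and 12.96 to 13.29 in HOXA9+MEIS1, and the monocyte markers at 14.70 to 14.76 and 13.12 to 13.53. The part of these markers in the values of the division genes was not tested.

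With Meis1 that lacks its homeodomain no difference passed the test. In HOXA9+MDHD against HOXA9+MIY 0 of 40 genes were called (1.91% of all genes were, 0.908% higher and 1% lower). None of the 40 was at an unadjusted p under 0.05 (13.4% of all genes were, 7.23% on the lower side), and 20 values lay below and 20 above 0 (55.2% of all genes were below). By role, 16 of 20 replication genes lay above 0 (median 0.02) and 12 of 13 mitosis genes below 0 (median -0.03). The values ran from -0.19 in Rrm2 to 0.15 in Pola1. The HOXA9+MDHD arrays were the least alike, and their summed late neutrophil markers ran from 12.78 to 14.83. Without HOXA9+MDHD week 4 replicate 2, 989 of all genes were called in place of 396, and without any other array 140 to 356. No member was called in any setting tried. In HOXA9+MEIS1 against HOXA9+MDHD, which shares its HOXA9+MEIS1 arrays with the first comparison, 0 of 40 were called (4.36% of all genes were, 2.24% higher and 2.11% lower). Of the values, 36 lay below 0 (47.5% of all genes) and 6 were at an unadjusted p under 0.05 (15.4% of all genes, 7.03% on the lower side).

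Week by week the full-length Meis1 comparison looked different. At week 3, 0 of 40 genes were called in HOXA9+MEIS1 against HOXA9+MIY (4.03% of all genes were, 1.69% higher and 2.34% lower) and 0 were at an unadjusted p under 0.05 (14.4% of all genes, 6.83% on the lower side). Of the 40 values 17 lay below 0 (46.7% of all genes). Replication genes leaned upward, with 16 of 20 above 0 and a median of 0.08, and mitosis genes had a median of 0.00. At week 4 all 40 values lay below 0 (55% of all genes did), with medians of -0.19 for replication and -0.22 for mitosis genes. Of the 40, 20 were at an unadjusted p under 0.05 (19.9% of all genes, 11% on the lower side). Only 3 were called, all lower, against 6.75% of all genes (2.87% higher and 3.89% lower).

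The 3 called at week 4 were Prim1, Ccna2 and Mki67. Prim1 stood at 8.71 and 8.94 in HOXA9+MEIS1 and at 9.29 and 9.18 in HOXA9+MIY (log2 -0.42 ± 0.098, 1.33-fold, adjusted p = 0.0322), whereas its week 3 values were 9.82 and 9.84 against 9.67 and 9.81. Ccna2 gave -0.22 ± 0.054 (adjusted p = 0.0399) and Mki67 -0.22 ± 0.056 (adjusted p = 0.0472). A fit on the week 4 arrays alone called 0 of the 40, with an adjusted p of 0.118 for Prim1, 0.138 for Ccna2 and 0.134 for Mki67, where it called 859 of all genes. The model that called the 3 genes called 3.89% of all genes lower at week 4. Among the further genes it called 5 of 41 replication genes lower (Tk1, Rfc5, Pola2, Dnmt1 and Gins4). The same held for 6 of 49 mitosis genes (Melk, Ccnf, Cdkn3, Spc25, Cenpf and Racgap1) and 1 of 15 regulators (Rbl1).

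The test of the difference between the weeks called none of the members. For HOXA9+MEIS1 against HOXA9+MIY, the week 4 effect minus the week 3 effect was below 0 in 39 of 40 genes (56.6% of all genes), with a median of -0.27 for replication and -0.20 for mitosis genes, but 0 of 40 were called, as were 0 of 20711 genes (0%). At an unadjusted p under 0.05 stood 11 of 40, against 6.48% of all genes (3.75% on the lower side), and 8 of the 11 were replication genes. The widest was Prim1 (-0.50 ± 0.139, unadjusted p = 0.00463, adjusted p = 0.547). Against HOXA9+MDHD the picture was alike, with 38 of 40 below 0 (59.3% of all genes), 13 at an unadjusted p under 0.05 (7.47% of all genes, 5.59% on the lower side) and 0 called (0% of all genes). For HOXA9+MDHD against HOXA9+MIY 23 of 40 were below 0, with 0 at an unadjusted p under 0.05 (4.81% of all genes) and 0 called (0% of all genes).

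**Figure D5:**
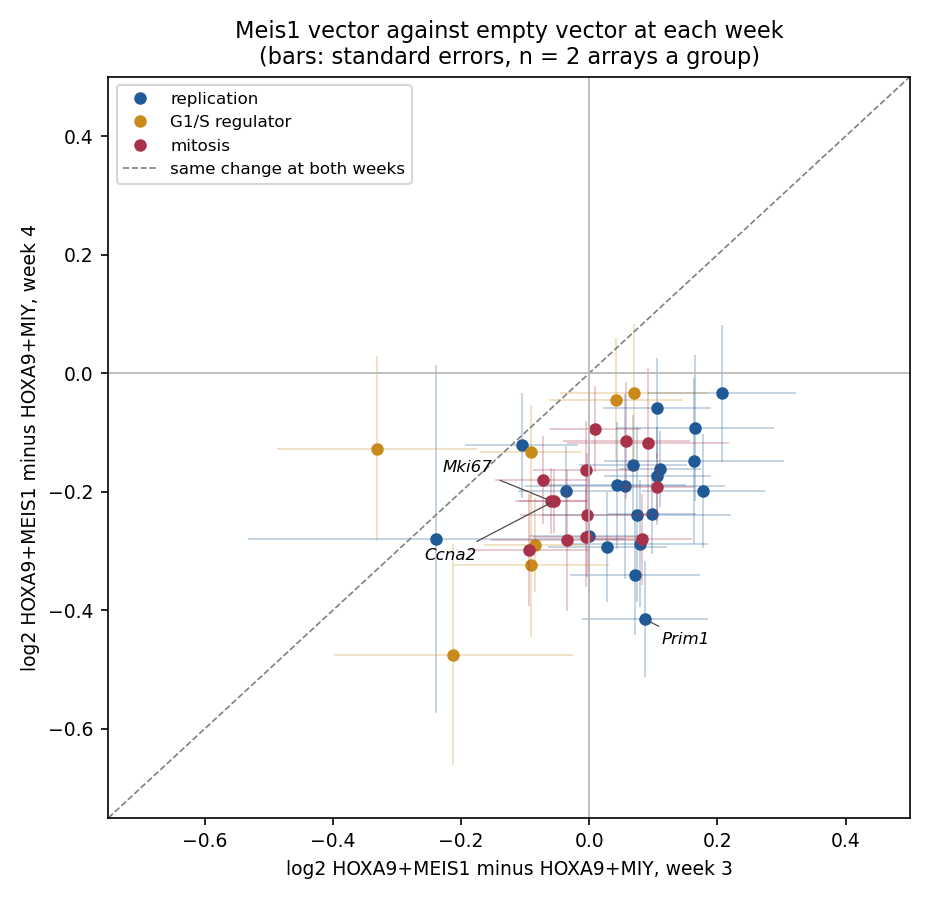
Log2 difference HOXA9+MEIS1 minus HOXA9+MIY at week 3 (horizontal) and at week 4 (vertical) for each of the 40 genes, with standard errors (bars), n = 2 arrays a group; the dashed line marks equal values, and the 3 genes called at week 4 are named. All 40 points lie below 0 at week 4, and 39 lie below the dashed line.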

How the data were processed

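RNA of 12 samples was measured on Affymetrix mouse exon arrays. The deposited values are log2 signals of 1256831 probe sets, made by the authors with RMA in Affymetrix Expression Console, per the submitters' processing notes; the versions are not given in the sources used here. RMA compresses low signals, so that small log2 changes of dim genes can be understated, which was not measured here. Of the probe sets, 318760 name 1 gene symbol; the 233798 of these with a mean log2 above 6.26, the 50th percentile, were kept. Their median polish (at most 50 iterations, tolerance 1e-06) gave 20711 gene values. The main test was limma 3.58.1 in R 4.3.3 with condition and week as terms, eBayes with a trend (8 residual and 4.10 prior degrees of freedom), and Benjamini-Hochberg adjustment over all genes, called under 0.05. Errors are limma's SE. The code was tested on simulated data. Precision is limited by how few arrays there are.

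The members and lists were chosen with earlier results of these data known. Cyclic loess, promoter words and the comparisons within a week or condition were chosen after seeing the data. All members are named, and from each further list up to 4 called genes of the largest change, with exceptions stated. Arrays with the same replicate number had r of -0.32 to -0.01 in 12 pairs, and arrays of different number -0.27 to 0.05 in 12 pairs. The number was not used as a pairing. At week 3 the centred median of the replication genes was nonetheless higher on replicate 2 in each condition. It was 0.286 against 0.255 in HOXA9+MIY, 0.392 against 0.329 in HOXA9+MEIS1 and 0.313 against 0.259 in HOXA9+MDHD. At week 4 this held only in HOXA9+MEIS1.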

Additional observations from a re-analysis of the deposited data

How the results depend on the processing

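In the week comparison the members' log2 changes were recomputed 959 times. Varied were filters, gene summaries, normalizations, eBayes settings, the replicate block, single conditions and arrays left out. Of these values 887 kept direction and call, 67 kept direction but lost the call, and 1 gained a call. The eBayes settings and the replicate block leave the log2 change itself as it is, so there only the call could change. In 2 an uncalled change turned its sign, and 2 called changes reversed. Both reversals were Bub1, at 0.0067 with quantile normalization (adjusted p = 0.910) and 0.065 with cyclic loess (adjusted p = 0.181). Quantile normalization also took the call from Mcm6, E2f1 and Bub1b. In the HOXA9+MIY arrays alone Mcm6, Cdc45l, Ccne2, E2f1, Ccnb2, Bub1, Bub1b and Kif11 lost it. Orc1l was called in all 24 settings listed for it. The fit of the HOXA9+MDHD arrays alone called 1 member in place of 37, and 58 of all genes. The fits of HOXA9+MIY alone and HOXA9+MEIS1 alone, also with 4 arrays each, called 5609 and 6599 of all genes. In that order they called 17 and 19 of 20 replication genes, 3 and 5 of 7 regulators and 9 and 12 of 13 mitosis genes lower. The reason for the difference was not tested. Replication minus mitosis was -0.22 in the HOXA9+MIY arrays alone and -0.41 in the HOXA9+MEIS1 arrays alone, against -0.31.

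For HOXA9+MEIS1 against HOXA9+MIY, 0 members were called in the main analysis, 2 with quantile normalization, 2 with cyclic loess and 1 with only the groups compared. With each array left out in turn the count ran from 0 to 1: Rrm2 without HOXA9+MIY week 4 replicate 2 (adjusted p = 0.0425), Mki67 without HOXA9+MEIS1 week 3 replicate 1 (adjusted p = 0.0400) and Plk1 without HOXA9+MDHD week 3 replicate 1 (adjusted p = 0.0469). The cause of these changes was not tested. With the replicate number as a block, 36 members were called lower at week 4, without Bub1 (adjusted p = 0.0908), and 0 in each vector comparison. Rrm2 rests on 1 probe set and had none under the stricter filter. Signal over background was not measured here.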

Other observations

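Single probe sets of Bub1 did not move together. Of its 30 probe sets 23 were lower at week 4, and 1 was higher by 2.27 on the log2 scale. Among the further genes, 5 were not called at week 4 in either direction and are named after their values were seen: Rbl2, a relative of the retinoblastoma protein (0.11 on the log2 scale), the phosphatase Cdc25b (-0.14), the kinetochore gene Cenpf (-0.16), Cks2, a subunit that binds cyclin-dependent kinases (0.00), and the primase subunit Prim2 (-0.08).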
